A study of Mus musculus with 6 samples.

Results

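Type I interferon-induced genes are genes that cells switch on after interferon alpha or beta binds its receptor, and 39 of them were followed here in mouse CD4+ T cells. Members were taken from a fixed list of symbols. A gene was used where the platform annotation assigned a probe set, the group of array probes read as 1 value, to that symbol alone, and the probe set with the highest mean over the 6 arrays stood for the gene. This left 35 measured members out of 22180 genes tested. Of the 4 members left out, Oas1a, Gbp2 and Dtx3l had only probe sets shared with a neighbouring gene, and Ifi44 was not analysed here. Ifi35 and Lgals3bp had more than 1 probe set, and the others had 1.

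The cells were splenic CD4+ T cells that had been purified with magnetic beads and kept in RPMI medium with 10% fetal bovine serum. All of them, the control cells included, were stimulated for 12 hours with anti-CD3 and anti-CD28 (1 µg/ml), antibodies that mimic antigen and costimulation. ConCM cells were grown in control conditioned medium, PlGFCM cells in medium from HEK-293 clones, a human embryonic kidney line, that overexpress PlGF2, a form of placental growth factor, and IL6_ConCM cells in control conditioned medium with IL-6 at 20 ng/ml. Each group held 2 samples and 1 array was read per sample. The labels give no strain, age or sex of the mice and do not say whether the 2 samples of a group came from separate animals. The p-values therefore reflect how far these samples spread, and that spread may be technical in ConCM and IL6_ConCM. The 2 PlGFCM samples differed in sex-linked transcripts (below), so they were not repeats of 1 cell pool. The labels do not name the cells that made the control medium. Every group received conditioned medium and every group was stimulated, so unstimulated cells and cells in fresh medium were not compared.

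Interferon alpha and beta bind the receptor chains IFNAR1 and IFNAR2, and the kinases JAK1 and TYK2 then activate a complex of STAT proteins with IRF9, called ISGF3. This complex contains STAT2 and binds the interferon-stimulated response element (ISRE) in front of its target genes. The products block viral entry, translation and replication, sense viral RNA and DNA, or feed back on the pathway, and many of them respond to interferon gamma as well. In T cells type I interferon is known to limit proliferation and to shape effector differentiation, and a low level of these transcripts is present without infection.

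The array levels are on a log2 scale, so a difference of -1 is a halving. Median levels over all genes ran from 5.58 to 5.65 on the 6 arrays, and arrays correlated at 0.994 to 0.995 within groups and 0.993 to 0.995 between groups over genes, which are not independent replicates. The T cell antigens Cd3e (11.84 to 12.17) and Cd4 (11.13 to 11.40) were high on all 6 arrays. PlGFCM replicate 2 stood apart by its sex-linked transcripts, with Xist at 8.38 against 3.58 to 3.95 on the other arrays and Kdm5d lowest at 7.07, so the counts of PlGFCM calls are also given without it. Since the cells were measured in bulk, fewer cells that express a gene and less RNA of it per cell cannot be told apart.

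The letters of the ISRE core, GAAANNGAAA on either strand, were looked for in the RefSeq promoter windows of build GRCm38.p6, which reach from 250 bases before to 50 bases after a transcription start. A window was listed for 26 of the 35 measured members, and 12 of these 26 genes (46.2%) held a match, against 3.99% of the 27025 genes with a window. Counted by window, 13 of 31 windows of members (41.9%) and 3.44% of all 32851 windows of the same length held one. The stretches below lie upstream of the start, run in the direction of transcription and have the matches in capitals. They were chosen to set members that were low in the treated cells (Ifit1, Isg15, Phf11b) beside members with the same letters and smaller differences (Trim30a, Stat2) and others with 2 matches (Ifit3, Bst2, Ddx60).
Ifit1 (chr19:34640760-34640838, plus strand): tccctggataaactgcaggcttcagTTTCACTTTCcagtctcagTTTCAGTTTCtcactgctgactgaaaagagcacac
Ifit3 (chr19:34583348-34583441, plus strand): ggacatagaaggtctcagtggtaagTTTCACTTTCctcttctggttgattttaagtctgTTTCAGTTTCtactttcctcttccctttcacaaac
Isg15 (chr4:156200850-156200921, minus strand): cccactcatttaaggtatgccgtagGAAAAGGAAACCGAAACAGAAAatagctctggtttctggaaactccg
Phf11b (chr14:59341346-59341405, minus strand): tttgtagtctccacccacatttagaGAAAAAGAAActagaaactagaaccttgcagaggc
Bst2 (chr8:71537562-71537627, minus strand): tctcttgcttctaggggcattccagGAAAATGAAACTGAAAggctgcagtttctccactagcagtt
Ddx60 (chr8:61928009-61928086, plus strand): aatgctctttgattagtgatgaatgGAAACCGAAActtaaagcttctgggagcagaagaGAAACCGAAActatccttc
Trim30a (chr7:104465195-104465254, minus strand): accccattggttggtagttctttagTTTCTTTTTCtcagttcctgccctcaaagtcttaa
Stat2 (chr10:128270251-128270310, plus strand): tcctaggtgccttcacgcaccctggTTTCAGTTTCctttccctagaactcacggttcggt

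In front of Isg15 there were 3 overlapping matches, the first of them starting 78 bases before the start, and in front of Ifit1 there were 2, the first starting 104 bases before it. Eif2ak2, Ifih1, Oas3 and Rsad2 were the other members with a match. No match was found in the windows of Cmpk2, Herc6, Ifi35, Ifit2, Irf7, Irf9, Isg20, Lgals3bp, Oasl1, Oasl2, Parp12, Samd9l, Trim25 and Xaf1, which says only that these letters are not in these windows. The core of the gamma-activated site that STAT dimers bind, TTCNNNGAA, which reads the same on both strands, was in the windows of 5 of the 26 members (19.2%) and of 9.55% of all genes with a window.

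The levels of the members were compared array by array before any test. ConCM replicate 1 held the highest level of 28 of the 35 members, ConCM replicate 2 that of 5 and PlGFCM replicate 1 that of 2, while no member was highest on the other 3 arrays. Over all 22180 genes, 4906 were highest on ConCM replicate 1. Relative to its own 6-array mean, the average member was at 0.26 and 0.12 on the ConCM arrays, -0.04 and -0.11 with PlGFCM, and -0.11 and -0.11 with IL6_ConCM. The control arrays were themselves unequal, since 28 of 35 members were higher on replicate 1 than on replicate 2, by a median of 0.14, against 55.0% of all genes and a median of 0.02.

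**Figure D1:**
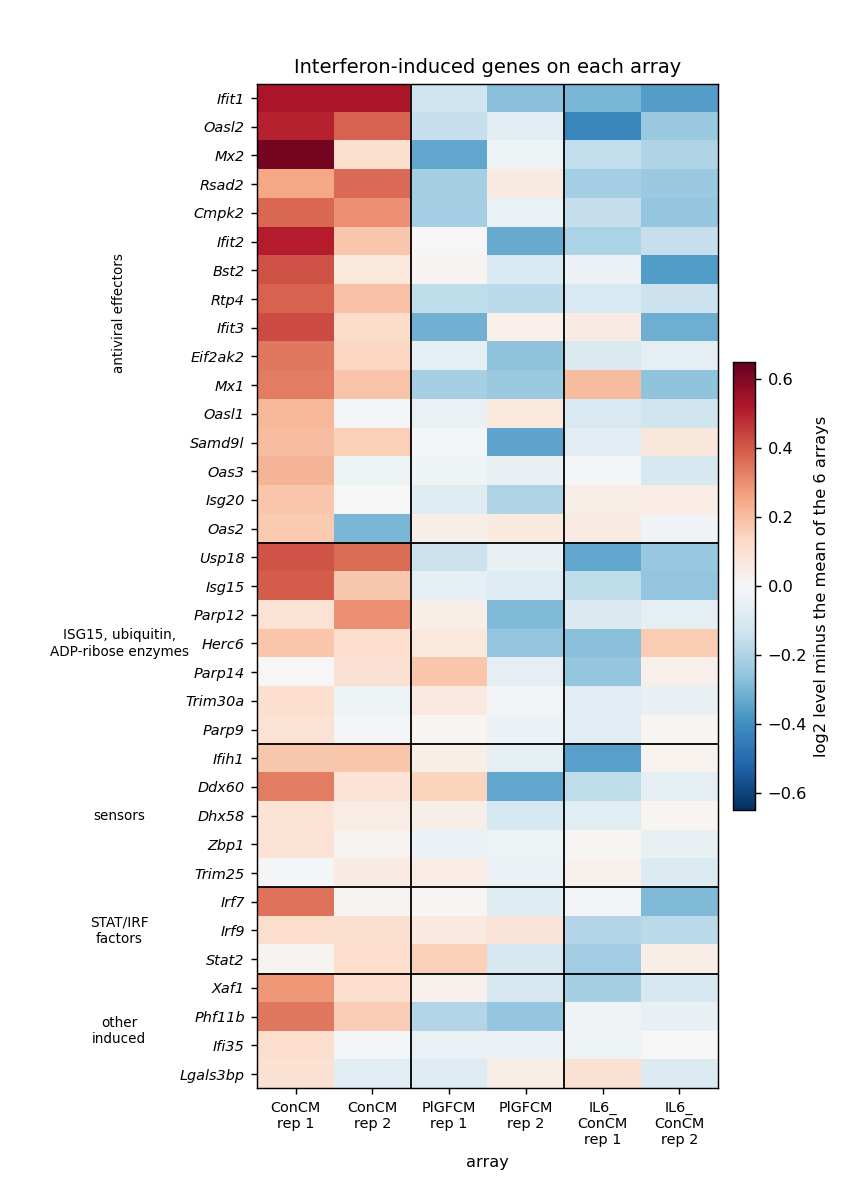
Log2 level of each of the 35 measured members on each of the 6 arrays, minus the mean of the 6 arrays (colour), with members in rows by role and arrays in columns by group. Red is concentrated in the ConCM columns, most of all on ConCM replicate 1, which held the highest level of 28 members.

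In PlGFCM cells set against ConCM, 3 members fell. Ifit1, whose product binds viral RNA that lacks the host cap, fell by 0.73 on the log2 scale (1.66-fold), Usp18, which removes ISG15 from proteins and blocks the interferon receptor, by 0.48 (1.39-fold), and Phf11b, a PHD-finger gene of the interferon response, by 0.47 (1.39-fold). These 3 of 35 members passed the limma test at a Benjamini-Hochberg adjusted p under 0.05 over all genes, no member rose, and 32 did not pass. Among all genes tested, 0.0812% fell. On 25 of 35 members both PlGFCM arrays lay below both ConCM arrays, where 20.9% of all genes did so, and 33 of 35 differences were below 0, against 53.6% of all genes. The members' median difference was -0.24, beside -0.014 for all genes. An unadjusted p under 0.05 was reached by 18 members, all of them lower, and by 8.74% of all genes in either direction. Without ConCM replicate 1, 31 of 35 differences were below 0, and the members' median minus that of all genes was -0.18. Without PlGFCM replicate 2, 0 members passed in limma, 30 of 35 differences were below 0 and the median was -0.17. Without ConCM replicate 2, 0 members passed as well, with a median of -0.32.

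Set against the same ConCM arrays, IL6_ConCM cells had lower levels of Ifit1, which fell by 0.86 (1.81-fold), of Oasl2, an OAS-like protein with ubiquitin-like domains, which fell by 0.77 (1.71-fold), and of Usp18, which fell by 0.68 (1.60-fold). These 3 of 35 members passed, none rose and 32 did not pass, while 0.0271% of all genes tested fell. IL6_ConCM arrays were both below the ConCM arrays for 24 of 35 members, against 18.4% of all genes, and the difference was below 0 for 34 of 35, against 53.1%. The median difference was -0.29 for the members and -0.0091 for all genes, and 17 members had an unadjusted p under 0.05, all of them lower, where 5.62% of all genes had one in either direction. Without ConCM replicate 2, 0 members passed in limma, the median was -0.34 and 35 of 35 differences were below 0. Without ConCM replicate 1, 32 of 35 differences were below 0, and the members' median minus that of all genes was -0.21. Because both comparisons use the ConCM arrays, their values are given side by side and are not independent of each other.

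**Figure D2:**
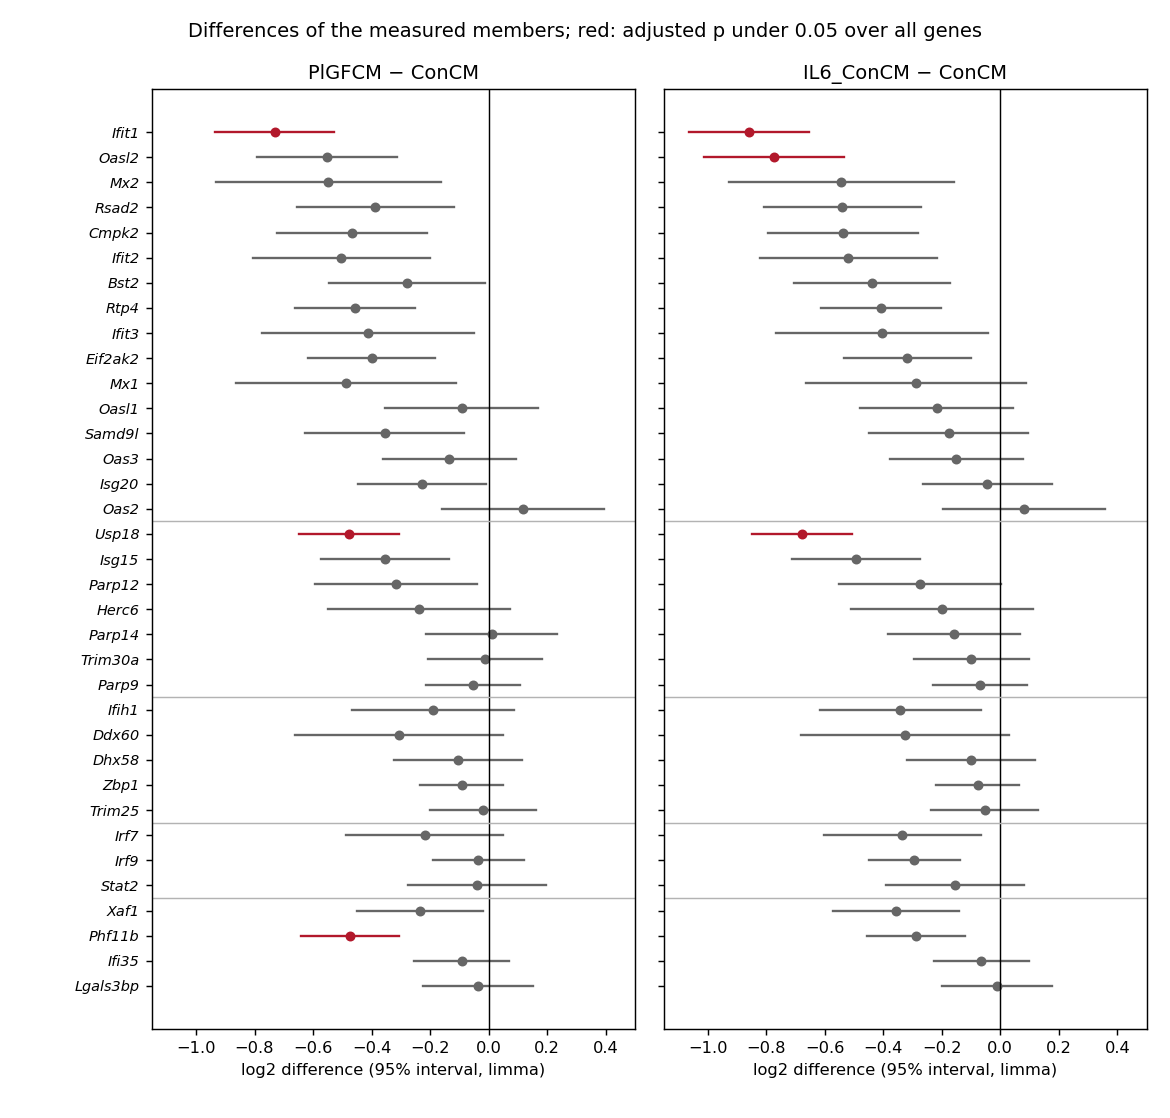
Log2 difference of each measured member with its 95% limma interval (lines), PlGFCM minus ConCM on the left and IL6_ConCM minus ConCM on the right, in the same order and scale. Members that passed are red: Ifit1, Usp18 and Phf11b on the left, and Ifit1, Oasl2 and Usp18 on the right.

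Antiviral effectors, the proteins that act on viral RNA or virus particles, were 16 of the 35 members. In PlGFCM 1 fell (0.0812% of all genes did) and 15 did not pass. The median difference was -0.41 and the range was from -0.73 to 0.12. In IL6_ConCM 2 fell (0.0271% of all genes did) and 14 did not pass. There the median was -0.41 and the range from -0.86 to 0.08. At an unadjusted limma p under 0.05 the count was 13 in PlGFCM and 10 in IL6_ConCM (8.74% and 5.62% of all genes). Both arrays lay below both ConCM arrays for 13 of 16 in PlGFCM and 12 of 16 in IL6_ConCM (20.9% and 18.4%). The effectors' mean deviation was 0.35 and 0.15 on the ConCM arrays and between -0.17 and -0.09 on the other 4.

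Ifit1 had log2 levels of 8.27 and 8.27 on the ConCM arrays, 7.61 and 7.46 with PlGFCM, and 7.44 and 7.38 with IL6_ConCM. Both control arrays were thus far above the other 4, and the groups did not overlap. The difference was -0.73 ± 0.09 (SE, limma adjusted p = 0.0088) for PlGFCM and -0.86 ± 0.09 (adjusted p = 0.0069) for IL6_ConCM. It did not pass in PlGFCM without PlGFCM replicate 2 (adjusted p = 0.114) or ConCM replicate 2 (adjusted p = 0.0788), nor in IL6_ConCM without ConCM replicate 2 (adjusted p = 0.0580) or IL6_ConCM replicate 2 (adjusted p = 0.0552). A fit without an intensity trend, in which the prior variance is the same at all levels, ended both calls (adjusted p = 0.1502 and 0.227).

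Its relatives Ifit2 and Ifit3, which also bind RNA and join the same protein complexes, did not pass in either comparison. Ifit2 had levels of 7.66 and 7.33 on the ConCM arrays, 7.16 and 6.83 with PlGFCM, and 6.95 and 7.00 with IL6_ConCM, with differences of -0.50 (adjusted p = 0.231) and -0.52 (adjusted p = 0.379) that did not pass. For Ifit3 they were 6.63 and 6.32 on the ConCM arrays, 5.89 and 6.23 with PlGFCM, and 6.25 and 5.89 with IL6_ConCM. The control arrays were the highest for both genes, with SDs within a group from 0.04 to 0.24 (Ifit2) and 0.22 to 0.26 (Ifit3, n = 2). Probe sets of the Ifit family can bind related transcripts, so the assignment to single genes is uncertain.

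Among the OAS family, whose enzymes make a short nucleic acid messenger that activates RNase L, the members differed. Oasl2 had levels of 7.47 and 7.35 on the ConCM arrays, 6.82 and 6.90 with PlGFCM, and 6.54 and 6.73 with IL6_ConCM, without overlap between any of the groups. Its difference was -0.77 ± 0.11 (SE, adjusted p = 0.0186) in IL6_ConCM, where it passed, and -0.55 ± 0.11 (adjusted p = 0.0659) in PlGFCM, where it did not. Leaving out any single array ended the call in IL6_ConCM (adjusted p = 0.0601 to 0.142), and so did the fit without an intensity trend (adjusted p = 0.270). In PlGFCM Oasl2 passed after quantile normalization (adjusted p = 0.0430).

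The other OAS genes differed less between groups. Oas2 had 8.85 and 8.38 on the ConCM arrays, 8.72 and 8.74 with PlGFCM, and 8.73 and 8.66 with IL6_ConCM, so that its control arrays were both the highest and the lowest of the 6. The differences were 0.12 (95% interval -0.16 to 0.39) and 0.08 (-0.20 to 0.36). Oas3 was at -0.13 and -0.15 and Oasl1, which is known to restrain translation of Irf7, at -0.09 and -0.22 in PlGFCM and IL6_ConCM, and neither passed.

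Rsad2 encodes viperin, a radical SAM enzyme that makes a chain-terminating nucleotide, and its neighbour Cmpk2 a nucleotide kinase that supplies its substrate. Rsad2 had levels of 6.65 and 6.77 on the ConCM arrays, 6.19 and 6.46 with PlGFCM, and 6.18 and 6.16 with IL6_ConCM. For Cmpk2 they were 6.61 and 6.53, 6.02 and 6.19, and 6.08 and 5.99 in the same order. All 4 treated arrays lay below both control arrays for each of these genes. The differences in IL6_ConCM were -0.54 ± 0.12 for each gene (adjusted p = 0.214 for Rsad2 and 0.168 for Cmpk2) and those in PlGFCM were -0.39 ± 0.12 and -0.47 ± 0.12 (adjusted p = 0.325 and 0.175), and none passed.

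Rtp4, a chaperone for receptors that also acts against viruses, had levels of 8.42 and 8.23 on the ConCM arrays, 7.87 and 7.87 with PlGFCM, and 7.94 and 7.89 with IL6_ConCM. Its 4 treated arrays were close together and below the controls. The differences of -0.46 ± 0.09 (adjusted p = 0.0761) and -0.41 ± 0.09 (adjusted p = 0.220) did not pass, although that in PlGFCM did after quantile normalization (adjusted p = 0.0480) and among genes at or above the median level (adjusted p = 0.0416). Eif2ak2, which encodes the kinase PKR that stops translation on double-stranded RNA, had group means of 8.87 in ConCM, 8.47 in PlGFCM and 8.55 in IL6_ConCM, with differences of -0.40 (adjusted p = 0.165) and -0.32 (adjusted p = 0.563).

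Bst2, which tethers budding virus particles to the cell surface, had levels of 10.44 and 10.09 on the ConCM arrays, 10.04 and 9.93 with PlGFCM, and 9.99 and 9.66 with IL6_ConCM. The control arrays were again the highest, and ConCM replicate 2 was close to PlGFCM replicate 1. The GTPases Mx1 and Mx2, which trap viral nucleoproteins, were at -0.49 and -0.55 in PlGFCM and at -0.29 and -0.54 in IL6_ConCM. None passed in limma. The interval of Mx1 in IL6_ConCM, where its arrays overlapped those of ConCM, ran from -0.66 to 0.09. Those of Mx2 were as wide as -0.93 to -0.16. Mean levels of 4.28 (Mx1) and 5.31 (Mx2) lay below the median level of all genes, 5.58 on the lowest array. Samd9l, which restrains protein synthesis, had 7.23 and 7.18, 7.02 and 6.68, and 6.96 and 7.10 in ConCM, PlGFCM and IL6_ConCM. Isg20, an exonuclease for RNA, had 7.81 and 7.63, 7.55 and 7.43, and 7.68 and 7.68. The IL6_ConCM levels of Isg20 lay between those of the control arrays, with a difference of -0.04 (95% interval -0.26 to 0.18), while the difference in PlGFCM was -0.23 (-0.45 to -0.01).

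**Figure D3:**
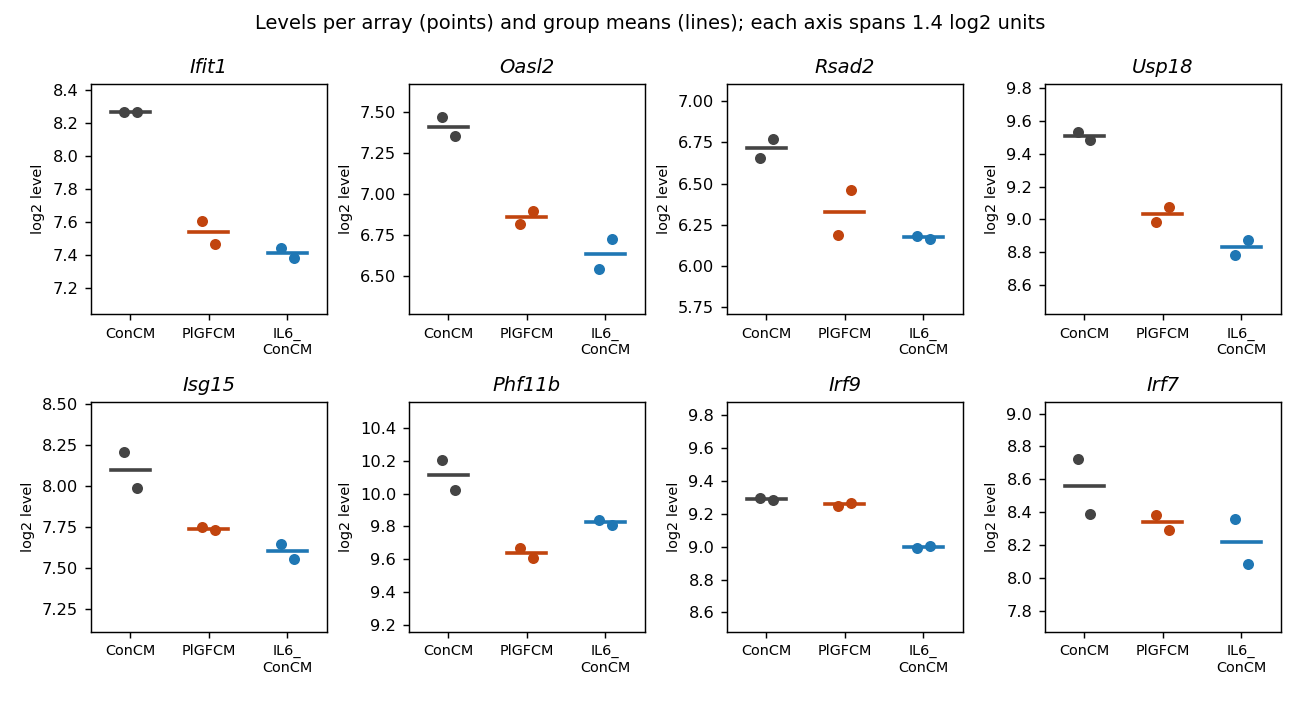
Log2 level of 8 members on each array (points, n = 2 per group) with the group mean (line), on axes of equal span. Ifit1, Oasl2, Rsad2, Usp18, Isg15 and Phf11b are highest on the ConCM arrays, while Irf9 is at 9.25 and 9.27 in PlGFCM beside 9.30 and 9.28 in ConCM, and at 8.99 and 9.01 in IL6_ConCM.

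A further 7 members encode ISG15, a ubiquitin-like protein that is joined to other proteins, and enzymes that attach or remove ISG15, ubiquitin or ADP-ribose. In each comparison against ConCM 1 of 7 fell, Usp18, and 6 did not pass, where 0.0812% (PlGFCM) and 0.0271% (IL6_ConCM) of all genes fell. At an unadjusted limma p under 0.05 the count was 3 in PlGFCM and 2 in IL6_ConCM (8.74% and 5.62% of all genes). Both arrays lay below both ConCM arrays for 4 of 7 in each comparison (20.9% and 18.4% of all genes). The median difference was -0.24 in PlGFCM and -0.20 in IL6_ConCM. Usp18 had levels of 9.53 and 9.49 on the ConCM arrays, 8.98 and 9.08 with PlGFCM, and 8.78 and 8.88 with IL6_ConCM. The 3 groups did not overlap and were tight, with SDs of 0.03 to 0.07 (n = 2). Its difference was -0.48 ± 0.08 (SE, adjusted p = 0.0243) in PlGFCM and -0.68 ± 0.08 (adjusted p = 0.0069) in IL6_ConCM. The call in PlGFCM ended without any 1 of the ConCM or PlGFCM arrays (adjusted p = 0.146 to 0.220), and that in IL6_ConCM was lost without ConCM replicate 2 (adjusted p = 0.0580). Without an intensity trend neither passed (adjusted p = 0.323 and 0.270).

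Isg15 had levels of 8.20 and 7.99 on the ConCM arrays, 7.75 and 7.73 with PlGFCM, and 7.65 and 7.56 with IL6_ConCM. The groups were ordered like those of Usp18 and did not overlap, with differences of -0.35 ± 0.10 (adjusted p = 0.247) and -0.49 ± 0.10 (adjusted p = 0.125) that did not pass. Herc6, the main ligase for ISG15 in the mouse, had group means of 8.42 in ConCM, 8.18 in PlGFCM and 8.22 in IL6_ConCM, with SDs up to 0.31 (n = 2). Parp12, an ADP-ribosyltransferase that acts against viral RNA replication, had 7.20 and 7.41 on the ConCM arrays, 7.15 and 6.82 with PlGFCM, and 7.01 and 7.05 with IL6_ConCM.

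Other enzymes of this group were nearly level. Parp14, an ADP-ribosyltransferase also linked to IL-4 signalling, had 10.12 and 10.22 on the ConCM arrays, 10.30 and 10.06 with PlGFCM, and 9.87 and 10.16 with IL6_ConCM, and all groups overlapped. The difference of Parp9, which forms a complex with Dtx3l, was -0.05 (95% interval -0.21 to 0.11) in PlGFCM and -0.07 (-0.23 to 0.09) in IL6_ConCM. For Trim30a, a ligase that dampens inflammatory signalling, it was -0.01 (-0.21 to 0.18) and -0.10 (-0.29 to 0.10), although its promoter stretch printed above holds a match to the ISRE core. These intervals do not reach the differences of Ifit1.

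Sensors of viral nucleic acid, with the proteins that help them, were 5 members. None passed in limma in either comparison against ConCM. At an unadjusted p under 0.05 the count was 0 in PlGFCM and 1 in IL6_ConCM (8.74% and 5.62% of all genes). The median difference was -0.10 in both, and 5 of 5 differences were below 0 in each (53.6% and 53.1% of all genes). Both arrays lay below both ConCM arrays for 3 of 5 in PlGFCM and 4 of 5 in IL6_ConCM (20.9% and 18.4% of all genes). Ifih1, the RNA sensor MDA5, had levels of 7.30 and 7.31 on the ConCM arrays, 7.17 and 7.07 with PlGFCM, and 6.78 and 7.15 with IL6_ConCM. Its control arrays were above the rest, and its differences were -0.19 (95% interval -0.47 to 0.09) and -0.34 (-0.62 to -0.06, adjusted p = 0.734). Ddx60, a helicase linked to RNA sensing, had 6.22 and 5.97 on the ConCM arrays, 6.03 and 5.55 with PlGFCM, and 5.72 and 5.82 with IL6_ConCM, and was at -0.31 and -0.32.

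The remaining sensors had small differences, although the treated arrays of Zbp1 and Dhx58 lay below both ConCM arrays in each comparison. Zbp1, which binds Z-form nucleic acid and can start necroptosis, had 10.29 and 10.21 on the ConCM arrays, 10.16 and 10.16 with PlGFCM, and 10.20 and 10.15 with IL6_ConCM, a difference of -0.09 (95% interval -0.23 to 0.05) and -0.08 (-0.22 to 0.06). Trim25, a ligase that activates RIG-I, had 8.69 and 8.76, 8.75 and 8.67, and 8.73 and 8.61 in the 3 groups, which overlapped. Dhx58, the regulator LGP2, was at -0.10 in both comparisons.

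The transcription factors of the pathway were 3 members. None passed in limma, and the median differences were -0.04 in PlGFCM and -0.29 in IL6_ConCM. At an unadjusted p under 0.05 the count was 0 in PlGFCM and 2 in IL6_ConCM (8.74% and 5.62% of all genes). Both arrays lay below both ConCM arrays for 2 of 3 in each comparison (20.9% and 18.4% of all genes). Irf9, the DNA-binding part of ISGF3, had levels of 9.30 and 9.28 on the ConCM arrays, 9.25 and 9.27 with PlGFCM, and 8.99 and 9.01 with IL6_ConCM. Its PlGFCM arrays were just below the controls, at a difference of -0.03 (95% interval -0.19 to 0.12), and its IL6_ConCM arrays lay below all others, at -0.29 ± 0.07 (adjusted p = 0.278). Irf7, which amplifies interferon production, had 8.72 and 8.39, 8.38 and 8.29, and 8.36 and 8.09, so that ConCM replicate 1 alone was high. Stat2 had 9.48 and 9.58, 9.62 and 9.36, and 9.24 and 9.51, with overlap between the groups and differences of -0.04 and -0.15. In PlGFCM the difference of Stat2 turned to 0.09 without PlGFCM replicate 2 and to 0.0096 without ConCM replicate 2.

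Of the last 4 members, Phf11b fell in PlGFCM and none passed in IL6_ConCM by limma, where 0.0812% and 0.0271% of all genes fell. At an unadjusted p under 0.05 the count was 2 in each comparison (8.74% and 5.62% of all genes). Both arrays lay below both ConCM arrays for 3 of 4 in PlGFCM and 2 of 4 in IL6_ConCM (20.9% and 18.4%). Phf11b had levels of 10.20 and 10.02 on the ConCM arrays, 9.67 and 9.61 with PlGFCM, and 9.84 and 9.81 with IL6_ConCM, without overlap. Its difference was -0.47 ± 0.08 (SE, adjusted p = 0.0242) in PlGFCM and -0.29 ± 0.08 (adjusted p = 0.379) in IL6_ConCM. Removing any 1 of the ConCM or PlGFCM arrays ended the PlGFCM call (adjusted p = 0.0545 to 0.227), as did the fit without an intensity trend (adjusted p = 0.366). Xaf1, a gene known for promoting apoptosis, had 8.43 and 8.25, 8.17 and 8.04, and 7.93 and 8.04 in the 3 groups, with differences of -0.23 and -0.36.

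The other members of that group were nearly level. Ifi35 had 9.52 and 9.39, 9.36 and 9.37, and 9.38 and 9.41. Lgals3bp, a secreted galectin-binding glycoprotein, was at -0.04 (95% interval -0.23 to 0.15) and -0.01 (-0.20 to 0.18). Differences this small are within the spread between replicates.

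Read against the promoter letters, the 12 members with an ISRE core match had a median difference of -0.33 in PlGFCM and -0.33 in IL6_ConCM. The 14 members with a window and no match had -0.23 and -0.25. Both sets were spread widely, since Trim30a with a match was at -0.01 in PlGFCM and Oasl2 without one at -0.77 in IL6_ConCM. These medians are a description of single probe sets and were not tested.

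Comparing PlGFCM directly with IL6_ConCM uses no control array. None of the 35 members passed in limma, 3 had an unadjusted p under 0.05, and of all genes 0.0316% passed and 4.37% had such an unadjusted p, each in either direction. The members' median difference was 0.017, beside -0.0030 for all genes, and 14 of 35 differences were below 0, against 50.9% of all genes. PlGFCM was higher without overlap for 8 members, against 15.2% of all genes, and lower without overlap for 4, against 14.9%. The 8 were Ifit1, Isg15, Irf9, Oasl1, Oasl2, Rsad2, Trim30a and Usp18, and the 4 were Ifi35, Isg20, Phf11b and Rtp4.

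The member furthest apart was Irf9, at 0.26 ± 0.07 (SE, 95% interval 0.10 to 0.42, adjusted p = 0.622). Usp18 was at 0.20 (0.03 to 0.37, adjusted p = 0.998) and Phf11b at -0.19 (-0.35 to -0.02, adjusted p = 0.998). For Ifit1 the difference was 0.13 (-0.08 to 0.33) and for Oasl2 0.22 (-0.02 to 0.46), so these intervals leave room for a difference in either direction. The Irf9 arrays of the groups did not overlap, but the direct difference did not pass after adjustment.

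**Figure D4:**
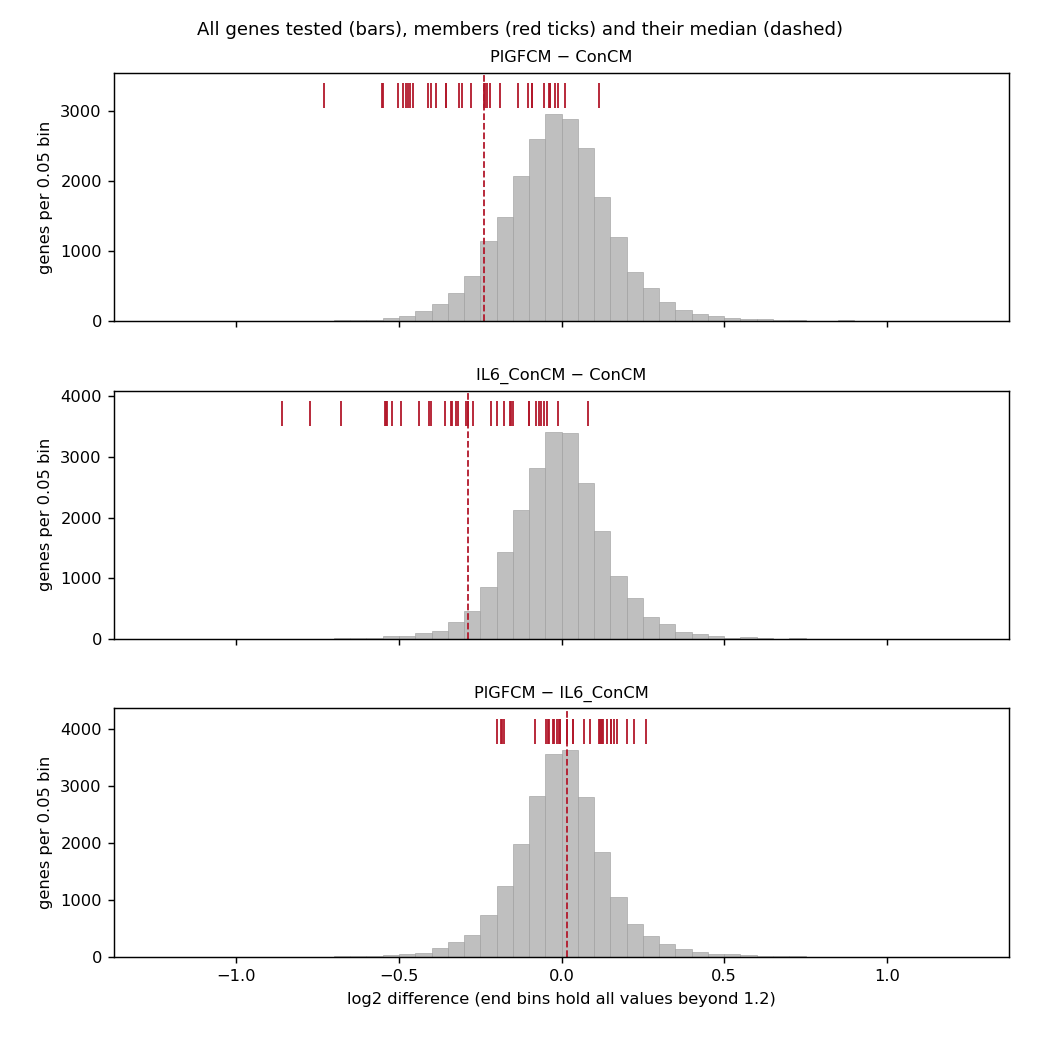
Number of genes per 0.05-wide bin of log2 difference for all 22180 genes (bars) in the 3 comparisons, with the 35 members as red ticks and their median as a dashed line. The members' median is at -0.24 and -0.29 in the comparisons against ConCM and at 0.017 in PlGFCM minus IL6_ConCM.

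The rest of the pathway was read from lists of 112 genes, of which 102 had a probe set of their own. Of 19 measured interferon ligands none passed in limma in any comparison, and at an unadjusted p under 0.05 the count was 1 in each. Ifnb1, interferon beta, had levels of 3.71 and 3.91 on the ConCM arrays, 3.55 and 3.62 with PlGFCM, and 3.50 and 3.65 with IL6_ConCM, near the low end of the array's range on all 6 arrays, where small differences cannot be read. Interferon gamma, which activated T cells make, had Ifng levels of 7.44 and 6.83, 6.92 and 7.07, and 6.76 and 6.16. ConCM replicate 1 was high for Ifng and IL6_ConCM replicate 2 low, with differences of -0.15 (adjusted p = 0.907) in PlGFCM and -0.68 (adjusted p = 0.556) in IL6_ConCM.

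Of the 12 measured receptor chains and kinases, 6 were higher in PlGFCM than in ConCM without overlap and 0 were lower. Among all 22180 genes, 3831 were higher and 4641 lower without overlap. In IL6_ConCM 2 of the 12 were higher and 4 lower, where 3484 and 4078 of all genes were. Jak2 was at 0.33 in PlGFCM (limma adjusted p = 0.0791) and did not pass. Ifnar1 was at 0.02 (95% upper bound 0.20) in PlGFCM and -0.03 in IL6_ConCM, and Ifnar2 at 0.02 and -0.08, and none passed. Of the 12 measured genes of this list 1 rose in PlGFCM, the interferon gamma receptor chain Ifngr1, from 10.91 and 10.94 to 11.32 and 11.19, a difference of 0.33 ± 0.06 (adjusted p = 0.0493). Leaving out any single array ended this call, with 0.40 and an adjusted p = 0.153 without PlGFCM replicate 2, and it was also lost with array medians subtracted (adjusted p = 0.0942) and without an intensity trend (adjusted p = 0.542). No gene of this list passed in IL6_ConCM, where 2 had an unadjusted p under 0.05. The list's median difference was 0.04 in PlGFCM and -0.05 in IL6_ConCM.

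Targets that respond mainly to interferon gamma, such as guanylate-binding proteins and immunity-related GTPases, were 16 measured genes. None passed in limma in PlGFCM or IL6_ConCM, 5 and 12 of them had an unadjusted p under 0.05 (8.74% and 5.62% of all genes), and the medians were -0.16 and -0.28. Both arrays lay below both ConCM arrays for 9 of 16 in PlGFCM (20.9% of all genes) and 12 of 16 in IL6_ConCM (18.4%). Here ConCM replicate 2, not replicate 1, was the highest array, for 12 of 16. The chemokine gene Cxcl9 had 8.57 and 8.73 on the ConCM arrays, 8.37 and 8.01 with PlGFCM, and 8.02 and 7.89 with IL6_ConCM, with an adjusted p = 0.0586 in IL6_ConCM.

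Among 38 further interferon-induced genes that are no members, none passed in limma against ConCM. At an unadjusted p under 0.05 there were 9 in PlGFCM and 10 in IL6_ConCM (8.74% and 5.62% of all genes). Their medians were -0.07 and -0.12. Rnf213, a large ubiquitin ligase, had 10.17 and 9.94 on the ConCM arrays, 9.54 and 9.69 with PlGFCM, and 9.52 and 9.59 with IL6_ConCM. Of 17 genes of upstream sensing none passed either (2 and 3 at an unadjusted p under 0.05), with medians of -0.01 and 0.01. The factor Irf8 had 10.35 and 10.27 on the ConCM arrays, 10.20 and 10.20 with PlGFCM, and 9.92 and 9.62 with IL6_ConCM, a difference of -0.54 (adjusted p = 0.0561) in IL6_ConCM. Rnf213, Tlr7, Irf8, Cxcl9 and Jak2 were picked after their values were seen. Without PlGFCM replicate 2 no gene of these pathway lists passed in limma against ConCM, and the PlGFCM medians were -0.17 for the ligands, 0.07 for receptors and kinases, 0.05 for upstream sensing, -0.05 for the further induced genes and -0.11 for the interferon gamma targets. At an unadjusted p under 0.05 the counts were then 2, 2, 1, 4 and 3 in that order.

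Markers of other cells that bead-purified CD4+ T cells could contain were read on the same arrays. The 9 markers of plasmacytoid dendritic cells, the main producers of interferon alpha, had mean deviations of 0.03 and 0.01 on the ConCM arrays, -0.07 and 0.11 with PlGFCM, and -0.0023 and -0.07 with IL6_ConCM, and none passed in limma (0 at an unadjusted p under 0.05 in either comparison against ConCM). Siglech, their surface lectin, had 5.59 and 5.38, 5.18 and 5.33, and 5.31 and 5.37. The 9 B cell markers were split in PlGFCM. Ms4a1 and Fcer2a fell by 0.84 and 0.86, while 6 of 9 differences were above 0 and the list's median was 0.21. Of the 9 markers, 5 were higher without overlap, as were 3831 of all 22180 genes. Among the 5 were Cd79b at 0.33 and Pax5 at 0.31, neither of which passed. In IL6_ConCM Ms4a1 and Fcer2a were at -0.31 and -0.49, below both ConCM arrays without overlap, and did not pass in limma. They were the 2 of 9 with an unadjusted p under 0.05 there (5.62% of all genes), while 5 of 9 differences were above 0. The list's mean deviation, between -0.03 and 0.03 on all 6 arrays, averages over both directions. The 10 myeloid markers were split as well, since Clec7a fell in PlGFCM by 0.60 but 6 of 10 differences were above 0, with Cd14 at 0.67 (adjusted p = 0.0806), Adgre1 at 0.38 and Lyz2 at 0.31, and list means lay between -0.07 and 0.09. Without PlGFCM replicate 2 no marker of any list passed in limma against ConCM, with Ms4a1 at -0.93 (adjusted p = 0.0841), Fcer2a at -0.999 (adjusted p = 0.0992) and Clec7a at -0.51 (adjusted p = 0.283). Without ConCM replicate 2 or PlGFCM replicate 1 these 3 did not pass either (adjusted p = 0.103 to 0.281), nor did Ms4a1 without ConCM replicate 1 (adjusted p = 0.0698). No marker of T cells, conventional dendritic cells or NK and CD8 T cells passed against ConCM in limma, where 2 T cell markers in PlGFCM and 1 in IL6_ConCM had an unadjusted p under 0.05. The T cell markers had their lowest mean deviation, -0.13, on ConCM replicate 2, and the part of any of these cells in the members' differences was not tested.

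**Figure D5:**
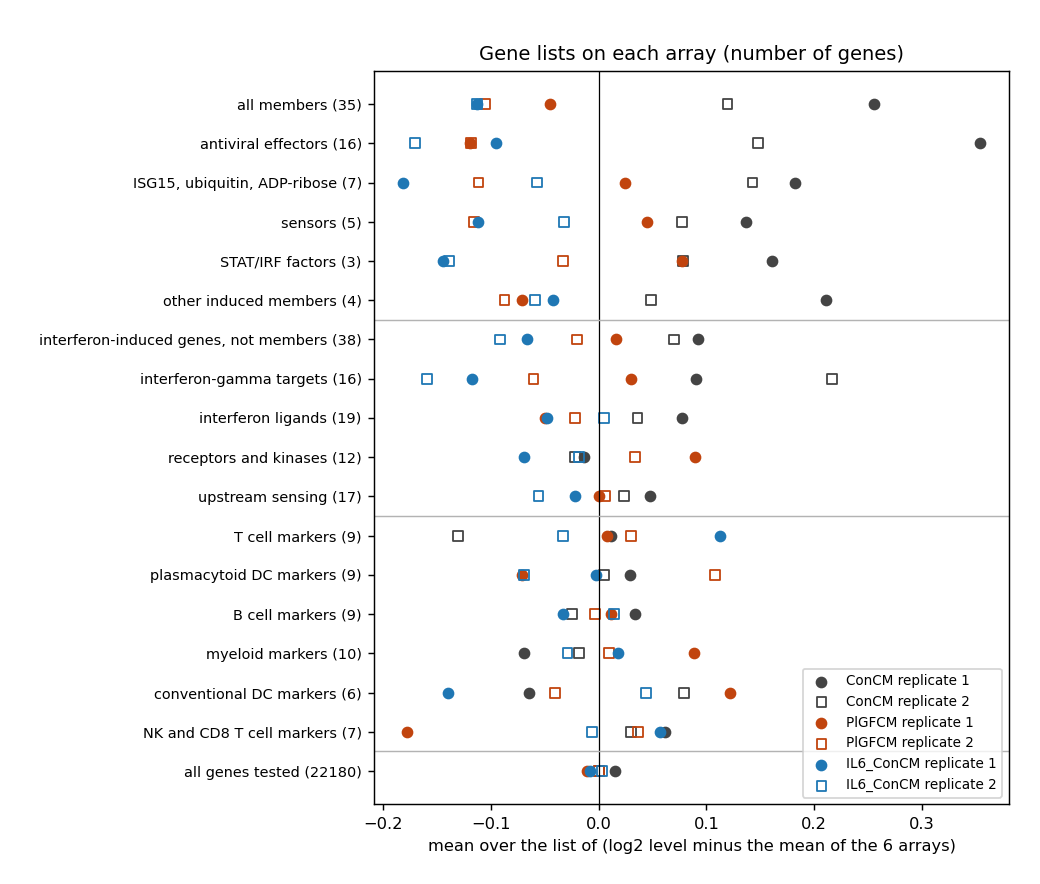
Mean over each gene list of the log2 level minus the mean of the 6 arrays, 1 symbol per array (filled, replicate 1; open, replicate 2), with the number of genes in parentheses. The members and each of their role groups have ConCM replicate 1 furthest to the right, at 0.26 for all members, while the interferon gamma targets have ConCM replicate 2 there, at 0.22.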

How the data were processed

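Total RNA of 6 samples was labelled with biotin for an Affymetrix whole-transcript array, per the labels' protocols. The deposited values are log2 levels per probe set, and per the submitters' processing notes the authors used Transcriptome Analysis Console for them. Not given in the sources used here were its version, background correction, normalization and build. The table holds 41345 probe sets, of which 23521 have 1 gene symbol in the platform annotation, giving 22180 genes with no filter on low levels. No further normalization was applied.

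Differences were fitted with limma 3.58.1 in R 4.3.3 (lmFit, then trended eBayes) over the 6 arrays (residual degrees of freedom 3, median prior 8.14), with Benjamini-Hochberg adjustment over all 22180 genes. Exact permutation of 2 and 2 arrays reaches a two-sided p of 0.333 at best, so none is reported. Arrays give no read depth, and their number limits the precision.

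The members and lists were chosen with earlier results of these data known, and no list was tested as a whole. Members that passed, the 3 of smallest p per role group and comparison, and Ifit1, Isg15, Usp18, Irf7, Irf9, Stat2, Ifih1 and Oasl2 are given per array. Other members are given in part per array where a family is described. Of the pathway lists, genes that passed and Ifnar1, Ifnar2, Ifnb1 and Ifng are named, and 1 further gene of this rule is not reported here. Promoter sequences are RefSeq's, and 9 members had no window there.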

Additional observations from a re-analysis of the deposited data

How the results depend on the processing

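The members' median difference kept its direction under every alternative run, but several runs could not change it. Changes to the variance fit, array weights, the replicate block and leaving out arrays of the group not compared left it as it was. In PlGFCM against ConCM it was -0.32 to -0.17 when single arrays were left out, in IL6_ConCM against ConCM -0.34 to -0.21, and in PlGFCM against IL6_ConCM 0.017 to 0.071. The SD between replicates of the members' median deviation, pooled over groups, was 0.049. The main value of 0.017 in PlGFCM against IL6_ConCM is smaller than this, so its direction cannot be read. The number of members that passed depended on the setting. In PlGFCM against ConCM it was 5 after quantile normalization, 5 among genes at or above the median level (33 members) and 0 without an intensity trend. No run without a ConCM or PlGFCM array kept all 3 calls of the main fit. Runs without an IL6_ConCM array, which this comparison does not use, kept them. In IL6_ConCM against ConCM the number was 0 without an intensity trend, and no run with a single array left out kept all 3 calls. Without a trend 6 and 1 of all genes passed, so that count is low for all genes. In PlGFCM against IL6_ConCM it was 0 in every limma setting. Of 49 single-gene differences under 15 alternatives (4 of them, of genes that are no members, added after seeing the data), 668 of 735 values kept direction and call, 54 lost the call and 4 gained it. Most of the 49 had not passed in the main fit, and they count as kept when they again did not pass. The 54 losses were all of differences that had passed. They ranged from 2 of 15 alternatives for Usp18 in IL6_ConCM to 12 of 15 for Ifngr1 in PlGFCM, each against ConCM. The 9 reversals, all with an array left out, were of differences that had not passed. With single arrays left out, Stat2 ranged from -0.17 to 0.091 in PlGFCM against ConCM (it was also 0.0096). In PlGFCM against IL6_ConCM, Stat2 ranged from -0.020 to 0.25, Trim25 from -0.024 to 0.093, Ifih1 from -0.037 to 0.34, Zbp1 from -0.042 to 0.013 and Irf7 from -0.019 to 0.25. The cause was not tested. With 2 arrays a group, the number of arrays limits which differences can pass.

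Replicate numbers are shared between groups, but over all genes the deviations of same-numbered samples correlated at -0.04, 0.11 and 0.03 between pairs of groups. Over the members alone the correlations were -0.25 (ConCM with PlGFCM), 0.43 (ConCM with IL6_ConCM) and -0.46 (PlGFCM with IL6_ConCM). These differ in sign, and the numbers were not taken as pairs. With the replicate number as a block, 3 members passed in PlGFCM and 2 in IL6_ConCM against ConCM, where Oasl2 was lost.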

Other observations

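The probe sets that the annotation gives to more than 1 gene were kept out of the comparisons. The probe set shared by Oas1a and Oas1g had log2 levels of 6.06 and 6.20 on the ConCM arrays, 6.16 and 5.78 with PlGFCM, and 5.90 and 5.85 with IL6_ConCM. That of Gbp2 and Gbp2b, guanylate-binding proteins, had 12.12 and 12.11, 12.08 and 12.11, and 12.04 and 11.93. That of Dtx3l and Parp9 had 9.79 and 9.88, 9.84 and 9.73, and 9.55 and 9.71.

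Ifit1bl1, a gene of the Ifit family that is no member, was chosen after its values were seen. It had log2 levels of 6.24 and 6.32 on the ConCM arrays, 5.73 and 4.95 with PlGFCM, and 5.09 and 5.10 with IL6_ConCM, with differences of -0.94 (limma adjusted p = 0.0901) and -1.19 (adjusted p = 0.0586) against ConCM. Apol9b had 5.06 and 4.70, 5.17 and 5.29, and 4.45 and 4.37, a difference of 0.82 between PlGFCM and IL6_ConCM (adjusted p = 0.199). Neither gene passed.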
